A study of Oryctolagus cuniculus with 16 samples.

Results

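The intima of the straight basilar artery (BA) of rabbits, the endothelium-lined inner layer of the artery that runs along the brainstem, was compared between animals with ligated carotid arteries and animals with sham surgery. The carotid and vertebral arteries together supply the brain, so that closing both common carotid arteries sends more blood through the BA and raises the shear stress on its wall. The data were 4 RNA-seq libraries of the 16 in the series, chosen by their labels for layer, vessel and flow: rabbits 3 and 4 had sham surgery (normal flow) and rabbits 5 and 6 had bilateral ligation of the common carotid arteries (high flow). All were female New Zealand white rabbits and were studied 24 h after surgery, and each library came from strips about 10 µm wide that were laser-microdissected from the inner wall of frozen sections of 1 rabbit, about 10 sections per sample. Of the 13788 genes in the deposited table, 8974 had a mean above 1 CPM (counts per 1e6 counts, scaled between libraries by edgeR's TMM method) in at least 1 of the 2 groups and were tested. The genes described are those whose 2 ligated values lay both above or both below the 2 sham values, 1386 and 1796 genes, while the groups overlapped for the other 5792. Values are given in the order rabbits 3 and 4 for sham and rabbits 5 and 6 for ligated.

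Endothelial cells sense the drag of flowing blood through junctional proteins, ion channels, integrins and the cytoskeleton, and answer with vasoactive molecules, matrix, proteases and growth factors that act on the smooth muscle beneath them. Sustained high flow is known to make arteries remodel to a wider lumen. Nitric oxide synthase, the transcription factors YAP and TEAD, and genes of coagulation, adhesion and leukotriene and lysophospholipid signalling are among the systems known to respond to flow in endothelium.

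Counts on named genes were 17686105 and 12658496 in the sham and 8842006 and 5211886 in the ligated libraries, so that both ligated libraries were shallower than both sham libraries. One count was worth 0.0606 and 0.0781 CPM in the sham and 0.114 and 0.180 CPM in the ligated libraries. A count of 0 allows up to 3 counts, or 0.341 and 0.540 CPM in the ligated libraries, for counting error only. Neither pair of libraries of a group agreed within counting noise, so each was counted as its own sample.

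The tissue carried its endothelial label. Of the 15 endothelial markers tested, 11 were higher in the intima than in the media of the BA in each of the 4 rabbits. Of all 8974 genes tested, this held for 1082. PECAM1, an adhesion molecule of endothelial junctions, was at 192 and 464 CPM in the sham and 476 and 692 CPM in the ligated libraries, CDH5, the endothelial cadherin, at 17.2 and 22.3 CPM in the sham and 11.04 and 58.2 CPM in the ligated libraries, and VWF, the endothelial clotting glycoprotein, at 728 and 2399 CPM in the sham and 667 and 1115 CPM in the ligated libraries. PLVAP, the diaphragm protein of fenestrated vessels, was at 0 in all 4 libraries. Smooth muscle transcripts were also present in every library, with ACTA2, smooth muscle actin, at 76981 and 34805 CPM in the sham and 42160.5 and 45802 CPM in the ligated libraries and MYH11, smooth muscle myosin, at 1834 and 689.6 CPM in the sham and 387 and 430.1 CPM in the ligated libraries.

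The sham library of rabbit 3 stood apart from the other 3. Its summed endothelial markers were the lowest, at 2237 CPM against 6908 CPM in the other sham library and 3417 and 5037 CPM in the ligated libraries. Its smooth muscle markers summed to 110573 CPM, against 55194, 63465 and 65212 CPM. Macrophage markers summed to 572 CPM in rabbit 3, 86.1 in rabbit 4, 228 in rabbit 5 and 112 CPM in rabbit 6, and markers of leptomeningeal and adventitial fibroblasts to 15385, 6594, 5671 and 2046 CPM. CD14, a macrophage marker, was at 60.1 and 73.3 CPM in the sham and 75.5 and 107 CPM in the ligated libraries. It made up most of the macrophage sum in rabbits 4 and 6. Of the 9 macrophage markers tested, CD14 was higher in both ligated libraries, 0 were lower and 8 overlapped. CSF1R, the receptor of macrophages for their growth factor, was at 1.88 and 0.0781 CPM in the sham and 0.228 and 0 CPM in the ligated libraries. PDGFRA, a fibroblast receptor, was at 61.7 and 0 CPM in the sham and 9.56 and 0.1801 CPM in the ligated libraries, and DCN, the fibroblast proteoglycan decorin, at 1961 and 8.51 CPM in the sham and 2073 and 18.4 CPM in the ligated libraries, high in sham rabbit 3 and ligated rabbit 5. CD3E and CD2 of T cells were at 0 in all 4 libraries, as was AQP4 of astrocytes. ALAS2 of erythroid cells was at 0 and 576 CPM in the sham and 29.1 and 205 CPM in the ligated libraries, high in sham rabbit 4 and ligated rabbit 6, and SLC4A1, the erythrocyte anion exchanger, at 0 and 0 CPM in the sham and 0.114 and 0 CPM in the ligated libraries. S100A8 and S100A9, which form the calprotectin of neutrophils, were at 1.696 and 152 CPM in the sham and 30.5 and 0.5403 CPM in the ligated libraries (S100A8) and at 28.3 and 329 CPM in the sham and 2750.3 and 1894 CPM in the ligated libraries (S100A9), while CSF3R and MPO of neutrophils were at 0 in all 4. In such bulk libraries fewer cells of a type and less RNA per cell cannot be told apart.

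**Figure D1:**
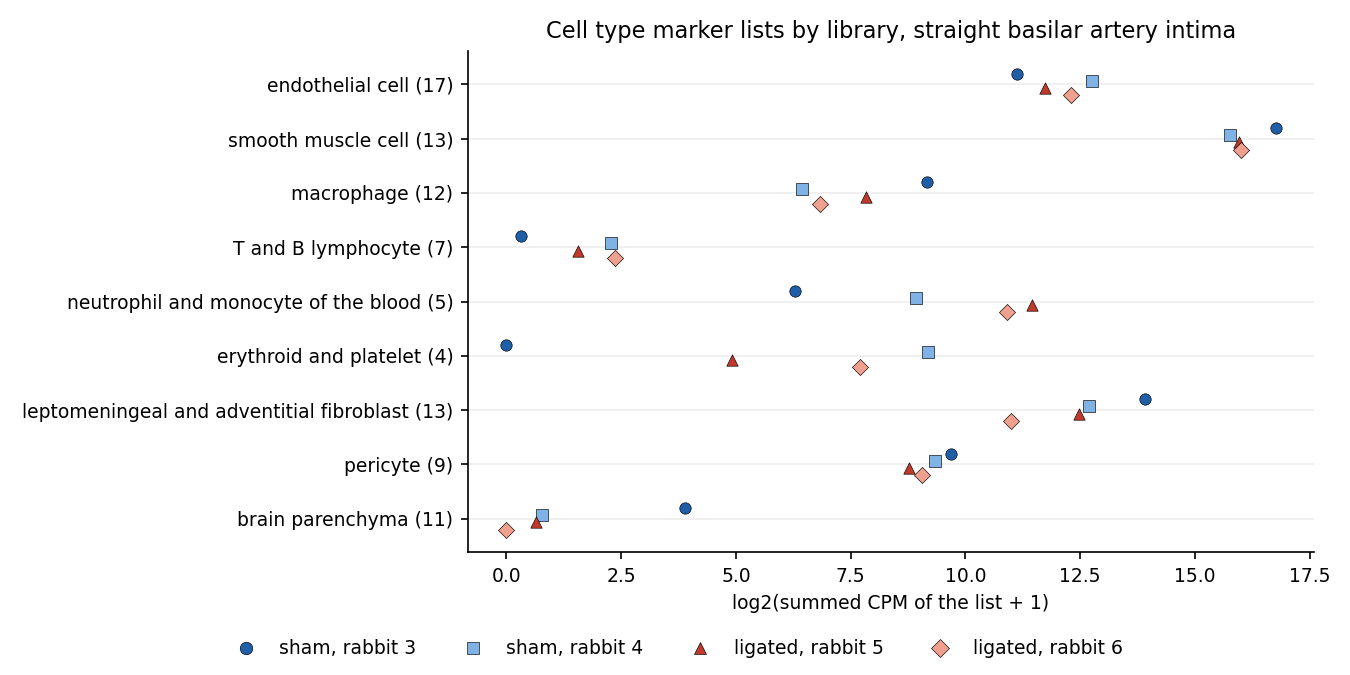
Summed level of each cell type marker list (number of markers in the table in brackets) in the 4 BA intima libraries, as log2 of the summed CPM plus 1, with a point for each library. Rabbit 3 (sham, dark blue circles) lies highest for smooth muscle, macrophage and fibroblast markers and lowest for endothelial markers.

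With edgeR's quasi-likelihood F test on 2 against 2 libraries, 0 of the 8974 genes (0%) reached a q-value (Benjamini-Hochberg adjusted p) below 0.05, and the smallest q was 0.208. At an unadjusted p below 0.05 there were 226 genes with higher and 308 with lower expression in ligated animals. DESeq2's Wald test called 120 genes, of which 115 were among the non-overlapping genes. The version 4 form of edgeR's test called 3 genes, and a fit over all 16 libraries called 10. An exact permutation test on a single gene cannot go below p = 0.333 with 2 against 2 animals. The common biological coefficient of variation between rabbits was 0.810. The statements that follow are therefore of the order and size of 4 measured values, and the word higher or lower is used for genes of which both ligated libraries lay on that side of both sham libraries. Of all genes tested, 15.4% lay higher and 20% lower in both ligated libraries, which is the background against which each gene group is set. Random order of 4 untied values would put a gene on either of these sides with probability 0.333. The 2 shares sum to little more than this. The number of genes on these sides is thus not by itself evidence of a response to ligation. The median log2 fold change of all genes was -0.10 with TMM scaling, -0.06 with DESeq2's size factors and -0.01 with no scaling beyond library size. Fitted log2 fold changes are given ± their standard error with edgeR's q, from n = 2 animals a group. Near the boundary, YAP1 counted as higher with 236 and 278 CPM in the sham and 449 and 278 CPM in the ligated libraries, while SOD1, the cytosolic superoxide dismutase, counted as overlapping with 789.8 and 603 CPM in the sham and 967 and 788 CPM in the ligated libraries.

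The widest gaps were found for ANKRD1 on the high side and DPEP2 on the low side. The gap is the distance, on the log2(CPM + 1) scale, between the nearest values of the 2 groups. It exceeded 1 for 216 higher and 400 lower genes, and 2 for 36 and 81.

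ANKRD1, a cardiac ankyrin repeat protein and a target of YAP and TEAD, was at 6.54 and 0.234 CPM in the sham and 2440.4 and 935 CPM in the ligated libraries, a gap of 6.96 (log2 fold change 8.94 ± 1.40, q = 0.219). It was close to background in sham rabbit 4 and abundant in both ligated rabbits. With all 16 libraries scaled jointly, the BA media of every rabbit held more ANKRD1 than its intima. The ratio of intima to media was 0.229 and 0.0183 in sham rabbits 3 and 4 and 0.861 and 0.423 in ligated rabbits 5 and 6. Which cells of the strips carried ANKRD1 was not tested. TM4SF18, a membrane protein of the L6 family, was at 19.1 and 34.04 CPM in the sham and 537 and 1298 CPM in the ligated libraries (log2 fold change 5.11 ± 0.66, q = 0.208), and TIMP1, an inhibitor of matrix metalloproteinases, at 487 and 364 CPM in the sham and 5090.2 and 6364 CPM in the ligated libraries (log2 fold change 3.75 ± 0.53, q = 0.208). These 2 had the smallest q-values on the high side. The ratio of the group means was 13.5 for TIMP1 and 34.5 for TM4SF18. ANKRD1, TM4SF18 and TIMP1 were the 3 genes called by the version 4 form of the test, with q = 0.0188, 0.0307 and 0.0464.

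Several membrane proteins and receptors were higher in ligated intima, from sham levels that ran from close to 0 for HTR2A and EMCN to well above it for CALCRL and ABCC9. EMCN, the endothelial sialomucin endomucin, was at 3.03 and 0.937 CPM in the sham and 24.2 and 68.4 CPM in the ligated libraries (log2 fold change 4.53 ± 0.98, q = 0.373). CALCRL, the receptor subunit for adrenomedullin and calcitonin gene-related peptide, was at 78.5 and 175 CPM in the sham and 1071 and 1041 CPM in the ligated libraries (log2 fold change 3.06 ± 0.54, q = 0.232), and its ligated values were nearly equal. ABCC9, the sulfonylurea receptor subunit of ATP-sensitive potassium channels, was at 24.6 and 13.98 CPM in the sham and 173 and 148 CPM in the ligated libraries (log2 fold change 3.06 ± 0.56, q = 0.232). HTR2A, a serotonin receptor that contracts vessels, was at 1.03 and 0 CPM in the sham and 40.3 and 12.2 CPM in the ligated libraries (log2 fold change 5.61 ± 1.65, q = 0.734).

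Of the remaining genes with wide gaps on the high side, ENPP5, an ectonucleotide phosphodiesterase family member, had no count in either sham library and 16.3 and 16.6 CPM in the ligated libraries, at least 78.96-fold higher when the sham libraries are set at 3 counts each. KBTBD4, a substrate adaptor of a ubiquitin ligase, also had no count in sham and 6.15 and 31.9 CPM in ligated libraries. XIRP2, an actin-binding Xin repeat protein, was at 0.485 and 0.0781 CPM in the sham and 12.2 and 10.8 CPM in the ligated libraries. These 3 genes were low or absent in sham intima in both rabbits. CLIC5, a chloride intracellular channel protein bound to the actin cortex, was at 0 and 0.0781 CPM in the sham and 24.4 and 6.48 CPM in the ligated libraries, PRKAR2B, a regulatory subunit of protein kinase A, at 0.727 and 0.3904 CPM in the sham and 10.9 and 13.3 CPM in the ligated libraries, and KRT19, a keratin, at 0 and 0.469 CPM in the sham and 8.54 and 30.3 CPM in the ligated libraries. The q-values of these 6 genes lay between 0.236 and 0.734.

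On the low side, SPP1, the matricellular phosphoprotein osteopontin, was at 449.8 and 238 CPM in the sham and 14 and 25.8 CPM in the ligated libraries (log2 fold change -4.12 ± 0.59, q = 0.208), the smallest q on that side. ENPP2, autotaxin, which makes lysophosphatidic acid, was at 386 and 364 CPM in the sham and 36.4 and 54.4 CPM in the ligated libraries (log2 fold change -3.05 ± 0.48, q = 0.219). DPEP2, a dipeptidase that turns leukotriene D4 into E4, was at 65.5 and 66.8 CPM in the sham and 3.41 and 0.9004 CPM in the ligated libraries (log2 fold change -4.90 ± 0.85, q = 0.232), and its sham values were nearly equal. For all 3 both sham rabbits lay well above both ligated rabbits. Summed fibroblast markers were also higher in both sham libraries than in both ligated libraries, and their part in these values was not tested. Of the 6594 CPM of that sum in sham rabbit 4, OGN and COL3A1 made up 3014 and 2858 CPM, and both were themselves among the lower genes. Of the 12 fibroblast markers tested, 5 were lower (41.7%, background 20%), which were LUM, COL3A1, SLC22A6, ALDH1A1 and OGN. ALDH1A2 was higher, and the other 6, PDGFRA and DCN among them, overlapped between the groups.

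Other genes of this side were scarce in both ligated libraries. C1QTNF7, a secreted C1q and TNF related protein, was at 55.3 and 13.4 CPM in the sham and 0 and 0.1801 CPM in the ligated libraries, the ligated libraries holding 1 count in all. NDP, the Wnt pathway ligand norrin, was at 31.3 and 8.51 CPM in sham and had no count in ligated libraries, at least 45.2-fold lower against 3 counts in each. LUM, lumican, was at 378 and 9.45 CPM in sham and also had no count in ligated libraries, but its sham values differed widely and the higher came from rabbit 3. DGKB, a diacylglycerol kinase, was at 39.4 and 27.8 CPM in the sham and 1.59 and 1.62 CPM in the ligated libraries, and CIART, a repressor of the circadian clock, at 73.3 and 36.1 CPM in the sham and 2.05 and 3.96 CPM in the ligated libraries (log2 fold change -4.19 ± 0.81, q = 0.269). ATP8A1, a phospholipid flippase, P4HTM, a transmembrane prolyl hydroxylase, SHH, the hedgehog ligand, CDS1, a CDP-diacylglycerol synthase, and PPARGC1A, a coactivator of mitochondrial genes, had 13.3 and 9.84, 9.81 and 8.04, 6.97 and 7.26, 8.84 and 6.64 and 13.6 and 6.56 CPM in sham and no count in ligated libraries. FOXP2, a forkhead transcription factor, was at 9.87 and 10.1 CPM in the sham and 0 and 0.1801 CPM in the ligated libraries and ZNF660, a zinc finger protein, at 11.3 and 10.7 CPM in the sham and 0.228 and 0 CPM in the ligated libraries. Zeros were more frequent on this side, that of the shallower libraries. Of the 1796 lower genes 173 had no count in either ligated library, whereas 31 of the 1386 higher genes had none in either sham library. After all libraries were thinned to 5211886 counts, 1454 genes lay higher and 1752 lower. Genes with a count numbered 9569 and 9353 in the sham and 8360 and 8954 in the ligated libraries. Ligated rabbit 5 thus had fewer such genes than ligated rabbit 6, although its library was deeper. The study lists the lowest RNA concentration of its samples for the BA intima of rabbit 5, and its part in the zeros was not tested.

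**Figure D2:**
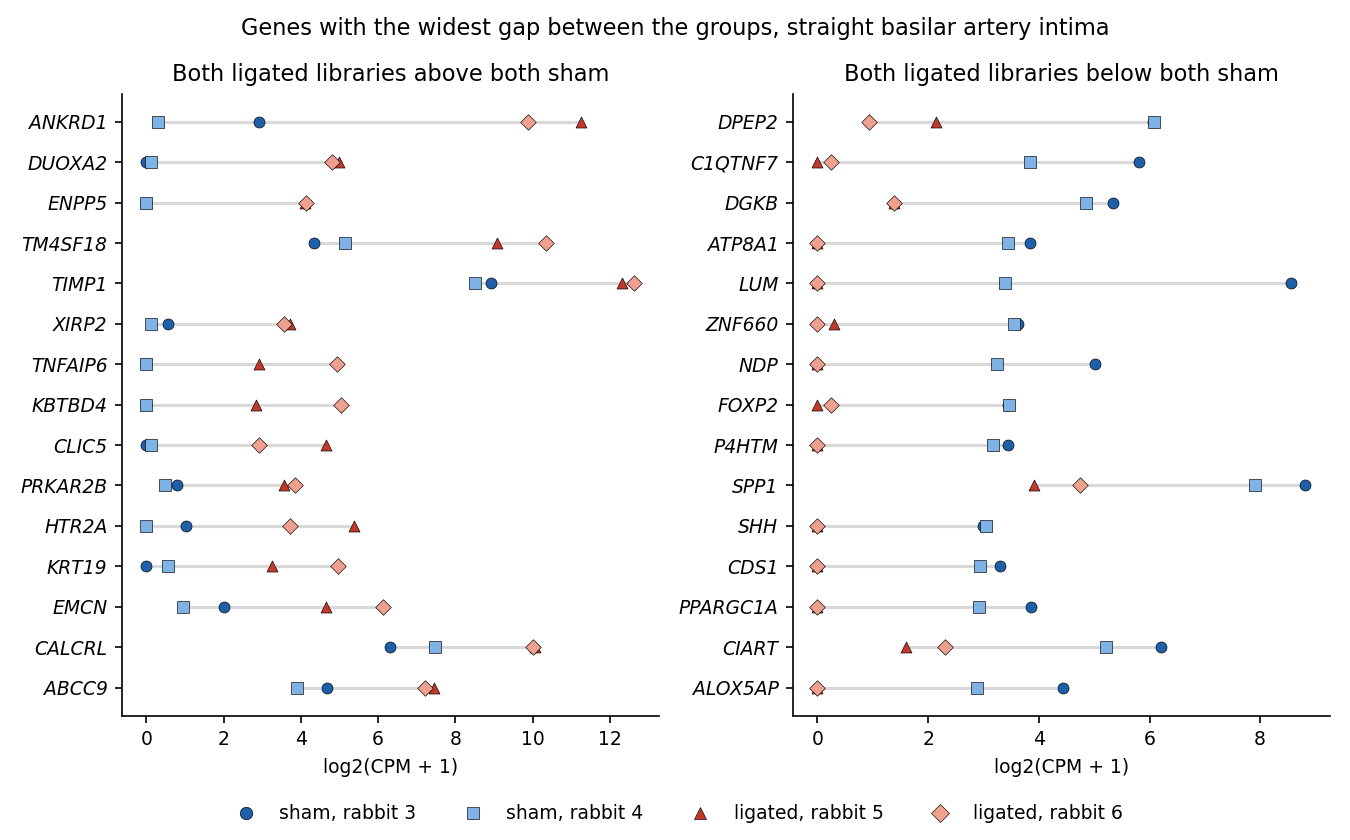
Level of the 15 genes with the widest gap in each direction, as log2(CPM + 1), with a point for each of the 4 libraries and a grey line over their range. In each gene both ligated points (red) lie to one side of both sham points (blue); several genes on the low side have both ligated points at 0.

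Among the 39 gene lists examined, the share of non-overlapping members departed furthest from the background for protein folding genes. Of the 18 heat shock and chaperonin genes tested, 13 (72.2%, background 15.4%) were higher and 2 lower in both ligated libraries, with a median log2 fold change of 0.85 against -0.10 for all genes and a smallest q of 0.718. Without sham rabbit 3, 14 were higher and 3 lower, where the background was 29.4% and 37.5%. Of the 18, 0 were higher in the intima than in the media of the BA in all 4 rabbits, against 1082 of all 8974 genes. Which cells of the strips carried these transcripts was not tested. All 8 subunits measured of the cytosolic chaperonin TRiC, the ring that folds actin and tubulin, were higher. CCT8 was at 456 and 302 CPM in the sham and 792 and 742 CPM in the ligated libraries and CCT3 at 211 and 165 CPM in the sham and 339 and 417 CPM in the ligated libraries. CRYAB, a small heat shock protein abundant in muscle, was at 3888 and 1192 CPM in the sham and 14341 and 10658 CPM in the ligated libraries (log2 fold change 2.30 ± 0.66, q = 0.718), so that its ligated values stood well above a wide sham spread. HSPA4 and HSPH1, nucleotide exchange factors of HSP70, were at 80.2 and 87.1 CPM in the sham and 322 and 179 CPM in the ligated libraries (HSPA4) and at 223 and 184 CPM in the sham and 554 and 329.7 CPM in the ligated libraries (HSPH1), and HSPA8, the constitutive HSP70, at 522 and 402 CPM in the sham and 1112 and 669 CPM in the ligated libraries. HSF1, the transcription factor of the heat shock response, lay the other way, at 48.4 and 45.6 CPM in the sham and 11.2 and 28.6 CPM in the ligated libraries.

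The proteasome, which degrades ubiquitin-tagged proteins, had 18 of 32 subunits higher (56.2%) and 1 lower, a median of 0.48 and 0 genes at q below 0.05. The differences were small, and PSMD14, the deubiquitinase of the lid, had the widest gap with 145 and 77.5 CPM in the sham and 423 and 350.5 CPM in the ligated libraries. PSMA1, a ring subunit, was at 493 and 369 CPM in the sham and 933 and 771 CPM in the ligated libraries and PSMC3, an ATPase of the base, at 317 and 402 CPM in the sham and 389 and 461 CPM in the ligated libraries. The single lower subunit was PSMB10, of the interferon-induced immunoproteasome, at 52.1 and 88.9 CPM in the sham and 44.95 and 25.8 CPM in the ligated libraries. Of 22 genes of folding and secretion in the endoplasmic reticulum, 8 were higher (36.4%, background 15.4%) and 0 lower. Of these 22, 0 were higher in the intima than in the media of the BA in all 4 rabbits. The widest gap was that of SDF2L1, a stress-induced luminal protein, at 64.4 and 82.8 CPM in the sham and 264 and 273 CPM in the ligated libraries. HSPA5, the main luminal chaperone, overlapped with 538 and 271 CPM in the sham and 467 and 690.1 CPM in the ligated libraries. In contrast, of 32 cytosolic ribosomal proteins 1 was higher (RPL27, 541 and 496 CPM in the sham and 913 and 806 CPM in the ligated libraries) and 0 were lower, a share below the background on both sides. RPL26L1 and RPS20, also of the ribosome, were at 140.3 and 164 CPM in the sham and 284 and 163 CPM in the ligated libraries (RPL26L1) and at 865 and 828 CPM in the sham and 1246 and 639 CPM in the ligated libraries (RPS20). Among 40 subunits of oxidative phosphorylation, 4 were higher and 5 lower (10% and 12.5%, background 15.4% and 20%). ATP5PF, a coupling factor of ATP synthase, stood out at 133 and 130.1 CPM in the sham and 842 and 679 CPM in the ligated libraries (log2 fold change 2.53 ± 0.45, q = 0.232), while NDUFB6 and NDUFS3 of complex I were at 618 and 325 CPM in the sham and 678 and 341 CPM in the ligated libraries (NDUFB6) and at 251 and 199 CPM in the sham and 194 and 210.2 CPM in the ligated libraries (NDUFS3).

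**Figure D3:**
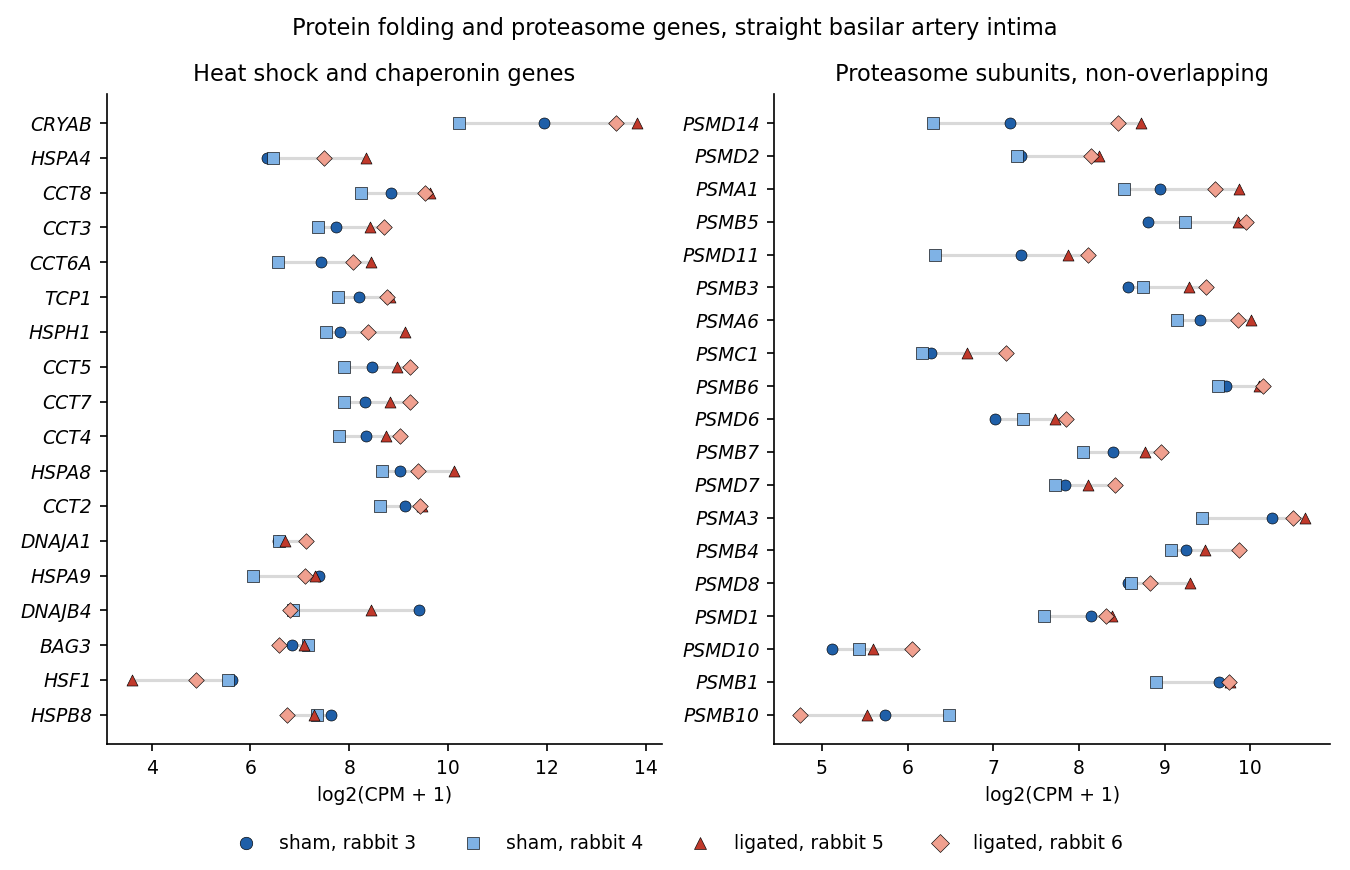
Level, as log2(CPM + 1), of the 18 heat shock and chaperonin genes tested (left) and of the 19 proteasome subunits whose groups did not overlap (right), with a point for each library. In 13 genes on the left and 18 on the right both ligated points (red) lie to the right of both sham points (blue).

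Genes of flow sensing were mixed. NOS3, the endothelial nitric oxide synthase, was at 136 and 482 CPM in the sham and 783 and 671 CPM in the ligated libraries (log2 fold change 1.23 ± 0.61, q = 0.856), with a wide spread between the sham rabbits. ASS1, which supplies arginine to it, was at 12.4 and 123 CPM in the sham and 184 and 204 CPM in the ligated libraries and GCH1, which makes its cofactor tetrahydrobiopterin, at 29.9 and 103 CPM in the sham and 172 and 153 CPM in the ligated libraries. In these 3 genes sham rabbit 3, the library poorest in endothelial markers, was the lowest, and sham rabbit 4 lay nearer to the ligated values. PTGS2, the inducible cyclooxygenase, overlapped at 246 and 443 CPM in the sham and 617 and 406 CPM in the ligated libraries. Of the 12 tested genes listed as shear-induced in endothelium, 3 were higher and 1 lower (25% and 8.33%, background 15.4% and 20%). Their median log2 fold change of -0.20 changed sign when sham rabbit 3, sham rabbit 4 or ligated rabbit 5 was left out. The lower one was TXNIP, an inhibitor of thioredoxin. It was at 377 and 588 CPM in the sham and 151 and 372 CPM in the ligated libraries. Whether shear raises or lowers TXNIP was not tested, so its lower values are not read as a response against flow. VCAM1, the leukocyte adhesion molecule of inflamed endothelium, was at 534 and 2636 CPM in the sham and 4341 and 4135 CPM in the ligated libraries and ICAM1, another such molecule, at 9.45 and 26.6 CPM in the sham and 15.1 and 17.8 CPM in the ligated libraries. TRPV4, a calcium channel gated by shear and swelling, was at 0 and 1.09 CPM in the sham and 10.5 and 10.99 CPM in the ligated libraries, the widest gap among mechanosensors, and PIEZO2 was at 1.696 and 0 CPM in the sham and 0 and 0 CPM in the ligated libraries. P2RX4, the ATP-gated channel, lay lower at 52.4 and 77.1 CPM in the sham and 34.6 and 28.1 CPM in the ligated libraries.

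Of 16 YAP and TEAD targets, 3 were higher and 3 lower, shares close to the background. CYR61, a matricellular protein, lay lower at 430.4 and 336 CPM in the sham and 213 and 38.9 CPM in the ligated libraries, and CTGF, its relative, overlapped at 3143 and 1643 CPM in the sham and 7141 and 2220.3 CPM in the ligated libraries. AXL, a receptor kinase, was at 4.18 and 5.23 CPM in the sham and 12.2 and 7.74 CPM in the ligated libraries.

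Vasoactive genes lay on both sides, and 12 of 21 overlapped. Besides CALCRL and NOS3, BDKRB1, an inducible bradykinin receptor, was higher at 0.787 and 0 CPM in the sham and 13.2 and 4.502 CPM in the ligated libraries. EDN1, the vasoconstrictor endothelin 1, was lower at 296 and 324 CPM in the sham and 43.4 and 122 CPM in the ligated libraries (log2 fold change -1.90 ± 0.57, q = 0.734), with similar values in both sham rabbits. NPY1R, the neuropeptide Y receptor of vessels, was lower at 211 and 199.9 CPM in the sham and 32.1 and 47.9 CPM in the ligated libraries (log2 fold change -2.36 ± 0.50, q = 0.342). PDE5A and GUCY1B1, which degrade and make cyclic GMP, were lower at 187 and 22.2 CPM in the sham and 14.3 and 14.4 CPM in the ligated libraries (PDE5A) and at 218 and 111 CPM in the sham and 19.1 and 100.5 CPM in the ligated libraries (GUCY1B1), as were ACE, which makes angiotensin II, at 9.51 and 65.4 CPM in the sham and 5.46 and 7.204 CPM in the ligated libraries, and PTGS1, the constitutive cyclooxygenase, at 85.6 and 164 CPM in the sham and 47 and 69.9 CPM in the ligated libraries. EDNRB, an endothelin receptor, was at 4.12 and 0 CPM in the sham and 0 and 0 CPM in the ligated libraries. Of 21 vasoactive genes tested, 3 were higher and 6 lower (28.6%, background 20%). Without sham rabbit 3, 6 of 14 vascular growth factor receptors and angiogenic genes were higher and 5 lower, where the background was 29.4% and 37.5%. With all 4 libraries, 5 of 13 were higher and 0 lower. Those higher were CALCRL, ADGRL4, an endothelial adhesion receptor, at 71.3 and 147 CPM in the sham and 372 and 431 CPM in the ligated libraries, TEK, the angiopoietin receptor, at 90.9 and 181 CPM in the sham and 217 and 419 CPM in the ligated libraries, FLT1, a VEGF receptor, at 7.33 and 64.6 CPM in the sham and 76.6 and 116 CPM in the ligated libraries, and FZD4, the norrin receptor, at 0 and 1.33 CPM in the sham and 1.93 and 1.801 CPM in the ligated libraries, which held few counts. KDR, the main VEGF receptor, was at 0.182 and 1.09 CPM in the sham and 0 and 0.9004 CPM in the ligated libraries and stayed close to the detection limit in all libraries.

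Fibrinolysis and coagulation genes that did not overlap lay mostly on the high side, with 7 of 15 higher (46.7%) and 1 lower, and a median log2 fold change of 1.37. PLAU and PLAT, the activators of plasminogen, were at 66.1 and 43.8 CPM in the sham and 130.3 and 191 CPM in the ligated libraries (PLAU) and at 18.1 and 86.5 CPM in the sham and 151 and 119.8 CPM in the ligated libraries (PLAT). PROCR, the endothelial protein C receptor, was at 12.2 and 14.5 CPM in the sham and 59.4 and 73.5 CPM in the ligated libraries, S100A10, a plasminogen-binding partner of annexin A2, at 151 and 166 CPM in the sham and 1009.8 and 529 CPM in the ligated libraries, and F2RL1, a protease-activated receptor, at 0 and 2.499 CPM in the sham and 11.04 and 8.82 CPM in the ligated libraries. TFPI, the inhibitor of tissue factor, was lower at 846 and 270.1 CPM in the sham and 151 and 126 CPM in the ligated libraries, where sham rabbit 3 was the highest. Without sham rabbit 3 the counts were 10 higher and 2 lower of 15, where the background was 29.4% and 37.5%. The lists of coagulation, hydrogen peroxide, leucine-rich proteoglycan and lipid mediator genes were written with the study's account of these same libraries in view, so that their direction is not independent evidence. The same limit holds for other lists that contain intimal genes called by the study. Such genes include PLS3 (actin), ITGB3 (integrins), SDF2L1 (endoplasmic reticulum), TIMP1 (metalloproteinases and inhibitors) and CYTL1 (secreted factors).

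Among genes of hydrogen peroxide production, the maturation factors DUOXA1 and DUOXA2 had no or almost no sham signal. DUOXA2, the maturation factor of the oxidase DUOX2, was at 0 and 0.0781 CPM in the sham and 30.8 and 26.8 CPM in the ligated libraries, a ratio of 859 with an exact 95% counting interval (Clopper-Pearson) of 153 to 33996, since the sham libraries held a single count. DUOX2 itself was at 0 in all 4 libraries. DUOXA1, the factor of DUOX1, had no count in sham and 4.32 and 17.5 CPM in ligated libraries, at least 52.4-fold higher, and DUOX1 was at 1.39 and 0.469 CPM in the sham and 8.65 and 12.97 CPM in the ligated libraries. RAC1, a GTPase of NADPH oxidases and of cell movement, was at 121 and 211 CPM in the sham and 344 and 477 CPM in the ligated libraries. The opposite order held for NOX4, an oxidase of the vessel wall, at 1.696 and 6.25 CPM in the sham and 0 and 0 CPM in the ligated libraries. Of 10 genes tested 4 were higher and 2 lower (40% and 20%, background 15.4% and 20%). Redox defence genes of the NRF2 pathway were mixed, with 3 of 15 higher and 2 lower (20% and 13.3%, background 15.4% and 20%). SRXN1, sulfiredoxin, was at 28.6 and 38.9 CPM in the sham and 207 and 145 CPM in the ligated libraries, PGD, an enzyme of the pentose phosphate pathway, at 205 and 263 CPM in the sham and 61.1 and 62.5 CPM in the ligated libraries, NQO1 at 19.3 and 14.8 CPM in the sham and 16.4 and 13.3 CPM in the ligated libraries and HMOX1, heme oxygenase, at 5.51 and 0 CPM in the sham and 0.228 and 0 CPM in the ligated libraries.

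Lipid mediator genes were split. The leukotriene genes ALOX5 and ALOX5AP, the lipoxygenase and its activating protein, had 5.33 and 7.34 and 20.7 and 6.403 CPM in sham and no count in ligated libraries, at least 14.4-fold and 30.8-fold lower. LTA4H and LTC4S, which make leukotrienes B4 and C4, overlapped at 36.5 and 45.7 CPM in the sham and 17.2 and 50.6 CPM in the ligated libraries (LTA4H) and at 20.5 and 132 CPM in the sham and 53.7 and 66.99 CPM in the ligated libraries (LTC4S). Around lysophosphatidic acid, the producer ENPP2 was lower while the receptor LPAR6 was higher at 35.7 and 134 CPM in the sham and 408 and 173 CPM in the ligated libraries, and PLPP1, which degrades it, at 272 and 319 CPM in the sham and 397 and 859 CPM in the ligated libraries. In retinoid metabolism RDH10, which makes retinal, was at 29.6 and 14.3 CPM in the sham and 182 and 133 CPM in the ligated libraries (log2 fold change 2.84 ± 0.59, q = 0.303) and ALDH1A2, which makes retinoic acid, at 63.2 and 0.0781 CPM in the sham and 172 and 137 CPM in the ligated libraries, whereas its relative ALDH1A1 was lower at 83.04 and 57.3 CPM in the sham and 19.6 and 21.6 CPM in the ligated libraries. ALDH1A2 and ALDH1A1 were also on the fibroblast marker list, and sham rabbits 3 and 4 differed widely for ALDH1A2. Of 24 genes 6 were higher and 8 lower (25% and 33.3%, background 15.4% and 20%).

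Matrix genes were led on the low side by small leucine-rich proteoglycans, which bind collagen fibrils. Of 9 tested, 5 were lower (55.6%, background 20%) and 0 higher. Without sham rabbit 3, 5 were lower and 2 higher, where the background was 37.5% lower and 29.4% higher. OMD, osteomodulin, was at 283 and 334 CPM in the sham and 22.6 and 59.2 CPM in the ligated libraries (log2 fold change -2.92 ± 0.58, q = 0.269) and OGN, osteoglycin, at 6805 and 3014 CPM in the sham and 1681 and 474 CPM in the ligated libraries. OMD differed little between the sham rabbits, while OGN and LUM were highest in rabbit 3. Fibroblast markers moved with these genes, with 5 of 12 lower in both ligated libraries and the summed levels given above, and LUM and OGN belong to both lists. Without sham rabbit 3, 5 were higher and 4 lower of 10 fibroblast markers, where the background was 29.4% and 37.5%. Their median log2 fold change went from -2.11 to 0.73. The summed level kept its order, at 6594 CPM in sham rabbit 4 against 5671 and 2046 CPM in the ligated libraries. Their part in the result was not tested. COL3A1, collagen III, was lower at 4219.9 and 2858 CPM in the sham and 971 and 753 CPM in the ligated libraries, and ABI3BP, a matrix protein, at 383 and 181 CPM in the sham and 5.24 and 42.9 CPM in the ligated libraries, while COL1A1 and COL1A2, collagen I, were at 5.57 and 2.19 CPM in the sham and 8.76 and 2.52 CPM in the ligated libraries (COL1A1) and at 1769.6 and 644 CPM in the sham and 733 and 639 CPM in the ligated libraries (COL1A2). On the high side were LOXL2 and LOXL1, which cross-link collagen and elastin, at 48.3 and 32.8 CPM in the sham and 119 and 155 CPM in the ligated libraries (LOXL2) and at 63.4 and 82.9 CPM in the sham and 149.8 and 139 CPM in the ligated libraries (LOXL1), whereas LOX, of the same family, was lower at 318 and 208 CPM in the sham and 62.02 and 166 CPM in the ligated libraries. FN1, fibronectin, was at 5625 and 6125 CPM in the sham and 7407 and 7767 CPM in the ligated libraries and COL8A1, an endothelial collagen, at 5772 and 4787 CPM in the sham and 8599 and 6373 CPM in the ligated libraries. Structural matrix as a whole stood near the background, with 5 higher and 6 lower of 28. Among 12 matricellular genes, TNC, tenascin C, was higher at 1666 and 943 CPM in the sham and 4179.6 and 2993 CPM in the ligated libraries and TNFAIP6, a hyaluronan-binding protein of inflamed tissue, had no count in sham and 6.601 and 29.5 CPM in ligated libraries, while SPP1 and CYR61 were lower. THBS1, thrombospondin 1, overlapped at 2524 and 920.5 CPM in the sham and 4125 and 2102 CPM in the ligated libraries.

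Of 21 metalloproteinases and inhibitors, 7 were higher and 6 lower, both above the background. TIMP3, an inhibitor held in the matrix, was lower at 1538 and 1696 CPM in the sham and 967 and 902 CPM in the ligated libraries, opposite to TIMP1. The aggrecanases ADAMTS9 and ADAMTS1 were higher at 16.6 and 4.61 CPM in the sham and 33 and 106 CPM in the ligated libraries (ADAMTS9) and at 261 and 402 CPM in the sham and 765 and 499 CPM in the ligated libraries (ADAMTS1), as was ADAMTS6, a related protease, at 11.2 and 8.12 CPM in the sham and 31.3 and 34.04 CPM in the ligated libraries. Of the other protease inhibitors, SERPINA6, corticosteroid-binding globulin, was higher at 0 and 0.781 CPM in the sham and 5.35 and 21.6 CPM in the ligated libraries and CST3, cystatin C, lower at 9124 and 6161 CPM in the sham and 1578 and 2456 CPM in the ligated libraries, with 4 of 11 higher and 3 lower.

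Secreted factors that could reach the media lay on both sides, with 5 of 31 higher and 8 lower (16.1% and 25.8%, background 15.4% and 20%). PDGFA and PDGFB, which act on smooth muscle and pericytes, were higher at 6.72 and 5.62 CPM in the sham and 12.97 and 20.7 CPM in the ligated libraries (PDGFA) and at 0.182 and 2.58 CPM in the sham and 3.19 and 13.1 CPM in the ligated libraries (PDGFB), as were PGF, a ligand of FLT1, at 1.51 and 1.09 CPM in the sham and 11.5 and 8.28 CPM in the ligated libraries, and IL15 at 9.08 and 28.7 CPM in the sham and 74.1 and 58.2 CPM in the ligated libraries. The lower factors included CYTL1, a small secreted protein, at 8704 and 31678 CPM in the sham and 1191 and 1884 CPM in the ligated libraries (log2 fold change -3.71 ± 0.75, q = 0.269), TGFB3 at 649 and 466 CPM in the sham and 257 and 171 CPM in the ligated libraries and PDGFC at 295 and 298 CPM in the sham and 146 and 164 CPM in the ligated libraries. CYTL1 was the factor with the widest spread between the sham rabbits among these 3, and both of its ligated values were lower still. In BMP and TGF-beta signalling, ID1 and ID3, targets of BMP, were lower at 2050.2 and 3312 CPM in the sham and 1916 and 1229.8 CPM in the ligated libraries (ID1) and at 319 and 539.7 CPM in the sham and 204 and 253 CPM in the ligated libraries (ID3), ID2 was at 23.3 and 11.9 CPM in the sham and 22.4 and 14.6 CPM in the ligated libraries, and the TGF-beta receptors TGFBR1 and TGFBR2 were higher at 186 and 106 CPM in the sham and 216 and 266 CPM in the ligated libraries (TGFBR1) and at 106 and 227 CPM in the sham and 305 and 289 CPM in the ligated libraries (TGFBR2). The list held 4 higher and 2 lower genes of 18 (22.2% and 11.1%, background 15.4% and 20%). Of 14 Notch and arterial genes 2 were higher and 1 lower (14.3% and 7.14%, background 15.4% and 20%). HEY1, a Notch target, was at 11.9 and 19.3 CPM in the sham and 0.569 and 7.38 CPM in the ligated libraries, NOTCH4 at 0.485 and 15.3 CPM in the sham and 10.1 and 35.5 CPM in the ligated libraries, and its ligand DLL4 at 9.57 and 118 CPM in the sham and 9.901 and 11.3 CPM in the ligated libraries, high in sham rabbit 4 alone.

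Actin regulators that did not overlap lay mostly on the high side, with 10 of 28 higher (35.7%) and 3 lower. PLS3, plastin 3, which bundles actin, was at 258 and 256 CPM in the sham and 2437 and 1269 CPM in the ligated libraries (log2 fold change 2.85 ± 0.52, q = 0.232) with nearly equal sham values. MSN, moesin, was at 106 and 48.5 CPM in the sham and 255 and 242 CPM in the ligated libraries, ARPC2, of the Arp2/3 complex, at 602 and 469 CPM in the sham and 1275 and 1751 CPM in the ligated libraries, and PDLIM5 at 1427 and 994 CPM in the sham and 2392 and 2152 CPM in the ligated libraries. Of the integrins, ITGB3, whose product pairs with that of ITGAV to bind osteopontin and vitronectin, was at 96.7 and 93 CPM in the sham and 428 and 625 CPM in the ligated libraries (log2 fold change 2.47 ± 0.47, q = 0.236), ITGAV at 94.6 and 41.2 CPM in the sham and 146 and 151 CPM in the ligated libraries, and ITGA5, of the fibronectin receptor, at 144 and 282 CPM in the sham and 471 and 499 CPM in the ligated libraries. ITGA7 and ITGA8, typical of muscle cells, were lower at 76.9 and 121 CPM in the sham and 32.7 and 48.3 CPM in the ligated libraries (ITGA7) and at 178 and 122 CPM in the sham and 48.3 and 96.2 CPM in the ligated libraries (ITGA8). The integrin list had 5 higher and 3 lower genes of 18 (27.8% and 16.7%, background 15.4% and 20%). Contractile genes were lower for 4 of 13 smooth muscle markers and higher for 0, with TPM2, beta-tropomyosin, at 9918 and 7648 CPM in the sham and 2171 and 3744 CPM in the ligated libraries and LMOD1, leiomodin, at 185 and 144 CPM in the sham and 86.7 and 47.9 CPM in the ligated libraries. Without sham rabbit 3, whose smooth muscle sum was the highest, the count of lower genes was the same. In that setting 4 were higher and 4 lower of 13, where the background was 29.4% and 37.5%. Junction genes mostly overlapped (1 higher and 1 lower of 18), the exceptions being JAM2 at 38.6 and 18.1 CPM in the sham and 87.3 and 93.1 CPM in the ligated libraries and CLDN12 at 14.2 and 6.64 CPM in the sham and 0.797 and 0.9004 CPM in the ligated libraries.

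The pericyte markers PDGFRB and KCNJ8 overlapped at 104 and 94.1 CPM in the sham and 93.4 and 138 CPM in the ligated libraries (PDGFRB) and at 28.6 and 21.4 CPM in the sham and 27.8 and 14.6 CPM in the ligated libraries (KCNJ8), and of 7 such markers 1 (ABCC9) was higher and 2 were lower, NOTCH3 at 189.9 and 387 CPM in the sham and 76.8 and 71.5 CPM in the ligated libraries and CSPG4 at 4.48 and 4.84 CPM in the sham and 2.504 and 3.24 CPM in the ligated libraries. Of the immediate early and stress transcription factors 2 of 15 were higher and 5 lower (13.3% and 33.3%, background 15.4% and 20%). JUN was at 20.7 and 29.98 CPM in the sham and 8.65 and 9.004 CPM in the ligated libraries, ATF3 at 88.2 and 25.8 CPM in the sham and 16.3 and 4.32 CPM in the ligated libraries, and FOS, which overlapped, at 680.1 and 139 CPM in the sham and 334 and 180.4 CPM in the ligated libraries. In glycolysis 4 of 15 genes were higher (26.7%, background 15.4%) and 0 lower. Among the higher were GAPDH at 90.1 and 108 CPM in the sham and 226 and 299 CPM in the ligated libraries and LDHA, lactate dehydrogenase, at 125 and 192 CPM in the sham and 255 and 703 CPM in the ligated libraries. HK1 and HK2, the hexokinases, were at 47.9 and 68.5 CPM in the sham and 58.2 and 87.2 CPM in the ligated libraries (HK1) and at 17.02 and 12.9 CPM in the sham and 13.7 and 21.97 CPM in the ligated libraries (HK2). In cell cycle and replication 6 of 21 were higher and 2 lower (28.6% and 9.52%, background 15.4% and 20%). UBE2C and BUB1 of mitosis had no count in sham and 4.78 and 1.801 and 5.35 and 0.7204 CPM in ligated libraries, CDK1 and TOP2A overlapped at 0 and 0 CPM in the sham and 0 and 7.02 CPM in the ligated libraries (CDK1) and at 0.182 and 9.45 CPM in the sham and 10.7 and 3.24 CPM in the ligated libraries (TOP2A), and TYMS, thymidylate synthase, was lower at 17.7 and 8.12 CPM in the sham and 1.48 and 0.1801 CPM in the ligated libraries. The mitotic genes stayed low in every library.

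Of 20 interferon genes 1 was higher and 0 were lower (5% and 0%, background 15.4% and 20%). Without sham rabbit 3, 3 were higher and 10 lower of 21 (background 29.4% and 37.5%), and their median log2 fold change went from 0.03 to -0.49. ISG15 was at 161 and 355 CPM in the sham and 127 and 399.8 CPM in the ligated libraries and IFIT2 at 14.1 and 0.0781 CPM in the sham and 13.7 and 36.6 CPM in the ligated libraries. The ligated rabbits differed from each other: CXCL10, an interferon-induced chemokine, was at 10.5 and 42.2 CPM in the sham and 0.683 and 575 CPM in the ligated libraries, RSAD2, viperin, at 0 and 0.0781 CPM in the sham and 0 and 45.2 CPM in the ligated libraries, and IL6 at 0 and 0 CPM in the sham and 0 and 45.9 CPM in the ligated libraries, so that all 3 were high in ligated rabbit 6 and absent or nearly so in ligated rabbit 5. RSAD2 and IL6 were named after their values were seen.

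**Figure D4:**
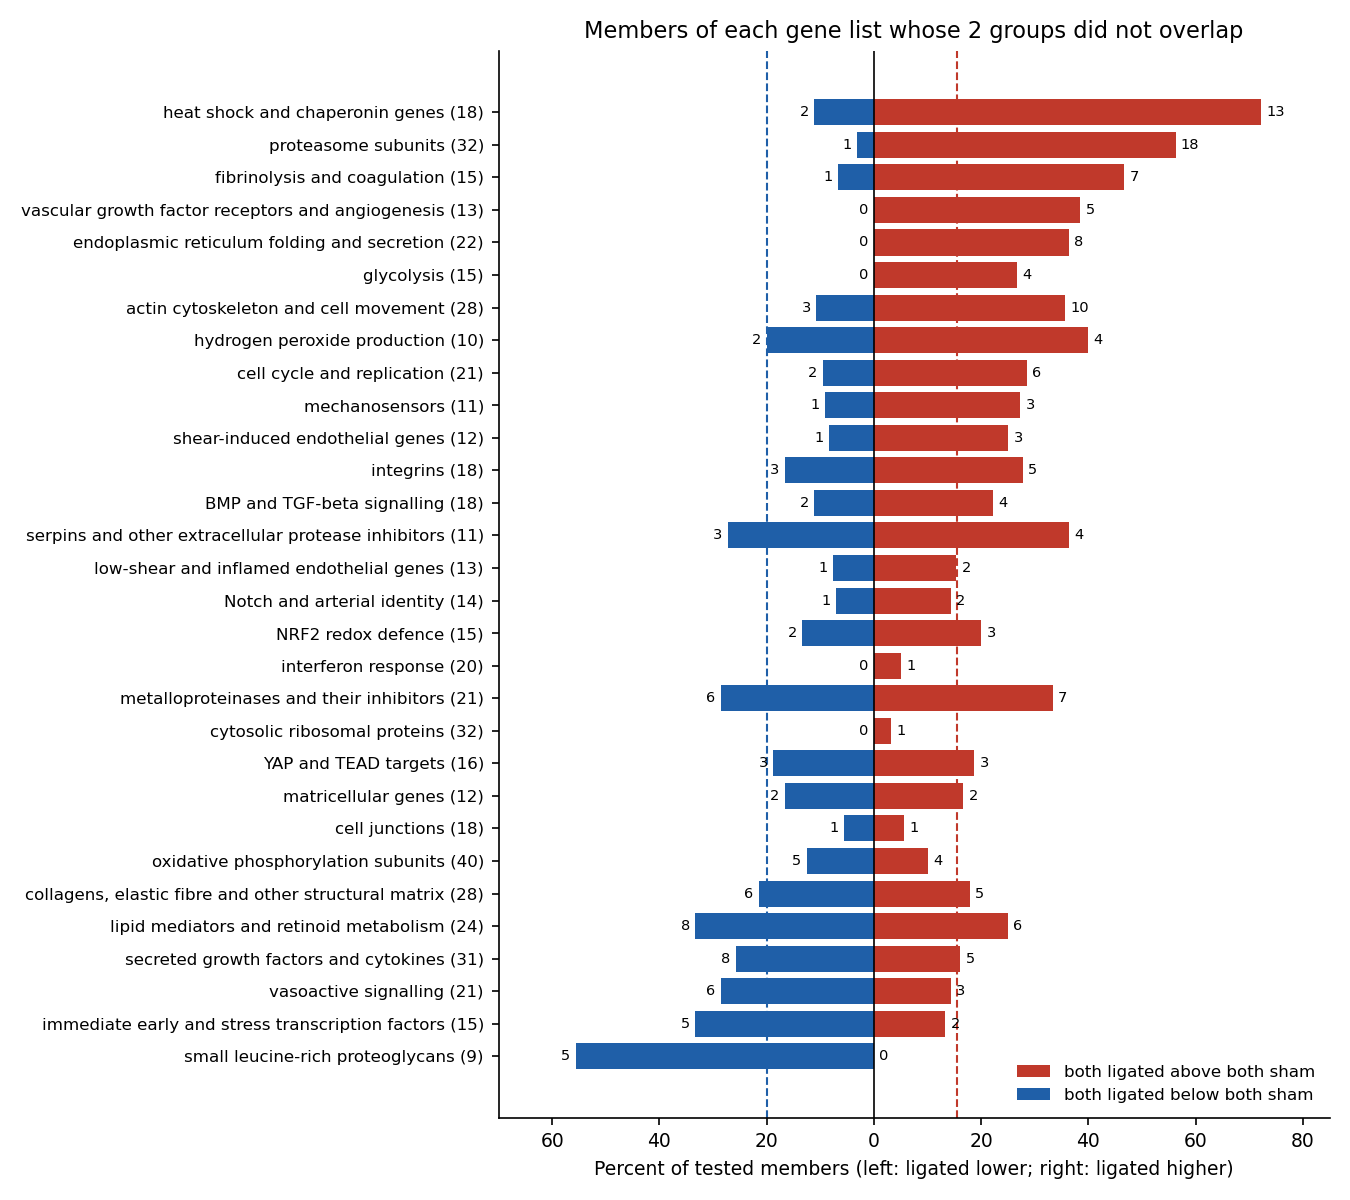
Percent of the tested members of each gene list (number tested in brackets) with both ligated values above (red, right) or below (blue, left) both sham values, with the number of genes at each bar. Dashed lines mark the background of all 8974 genes, 15.4% higher and 20% lower. Heat shock and chaperonin genes and proteasome subunits reach furthest to the right, and small leucine-rich proteoglycans furthest to the left.

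The same 4 rabbits also gave intima of the basilar terminus (BT), the bifurcation at the end of the BA, and media of the BA, so the values that follow are not those of other animals. Each tissue was scaled on its own 4 libraries. ANKRD1 was at 1.34 and 6.56 CPM in the sham and 1039 and 932 CPM in the ligated libraries of the BT intima, and at 24.6 and 11.2 CPM in the sham and 2449 and 1961 CPM in the ligated libraries of the BA media. DUOXA2 was at 0 and 0 CPM in the sham and 77.4 and 66.9 CPM in the ligated libraries of the BT intima and at 0 and 0 CPM in the sham and 6.33 and 0 CPM in the ligated libraries of the BA media, where only ligated rabbit 5 had any. TM4SF18 was at 17.3 and 40.96 CPM in the sham and 1588 and 889.98 CPM in the ligated libraries of the BT intima and at 0 and 0 CPM in the sham and 309 and 44.5 CPM in the ligated libraries of the BA media. PECAM1 in the BA media was 2.71 and 32.5 CPM in the sham and 137 and 5.38 CPM in the ligated libraries, the highest in ligated rabbit 5, and its part in these values was not tested. TIMP1 was at 723 and 446 CPM in the sham and 19318 and 8566 CPM in the ligated libraries of the BT intima, and DPEP2 at 31.3 and 59.5 CPM in the sham and 3.37 and 3.57 CPM in the ligated libraries. In the BA media these genes were at 973 and 836 CPM in the sham and 5409 and 2369 CPM in the ligated libraries and at 151 and 177 CPM in the sham and 3.41 and 5.38 CPM in the ligated libraries. In each of these genes but DUOXA2 in the media, ligated and sham values did not overlap in either further tissue.

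Whether the change with ligation differed between tissues was tested as an interaction. The values of this paragraph are from fits without rabbit as a block, which ignore that the tissues came from the same rabbits. Between BT and BA intima 0 of 9641 genes reached q below 0.05 (edgeR, smallest q 1.00), and 301 had an unadjusted p below 0.05. The smallest p-values were those of BST1, a membrane enzyme of the NAD pathway, and THSD7A. BST1 was at 6.24 and 8.35 CPM in the sham and 23.7 and 3.42 CPM in the ligated libraries of the BA intima and at 21.2 and 14.6 CPM in the sham and 0 and 0 CPM in the ligated libraries of the BT intima. THSD7A, an endothelial membrane protein, had no count in sham and 3.76 and 1.98 CPM in ligated BA intima, and the reverse in the BT, with 15.6 and 5.76 CPM in sham and no count in ligated libraries. Between media and intima of the BA 0 of 9514 genes reached the threshold (smallest q 1.00) and 252 had an unadjusted p below 0.05, led by SPP1 and CASQ1. SPP1 in the BA media was at 414 and 230.3 CPM in the sham and 247 and 162 CPM in the ligated libraries, against the wide gap in the intima. CASQ1, a calcium-binding protein of muscle, was at 6.66 and 6.56 CPM in the sham and 10.9 and 6.12 CPM in the ligated libraries of the intima and at 0 and 0 CPM in the sham and 9.74 and 29.6 CPM in the ligated libraries of the media. With 2 animals a group a difference between tissues was not detectable for any gene, which does not show that the tissues responded alike.

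**Figure D5:**
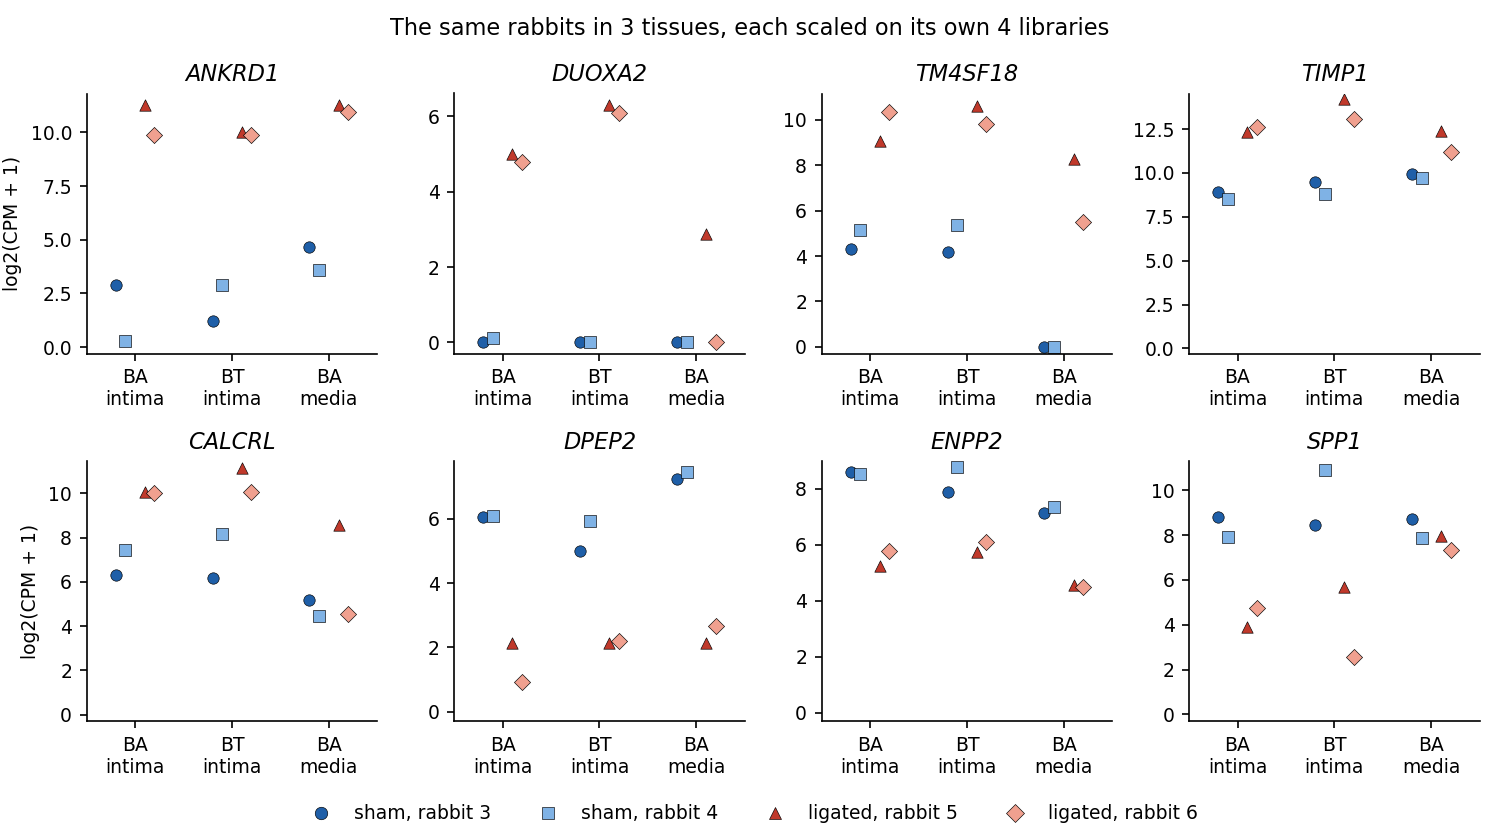
Level of 8 genes, as log2(CPM + 1), in the BA intima, BT intima and BA media of the same 4 rabbits, with a point for each library and each tissue scaled on its own 4 libraries. ANKRD1, TM4SF18 and TIMP1 lie higher and DPEP2 and ENPP2 lower in both ligated rabbits of all 3 tissues, while SPP1 is separated in the intima and overlaps in the media.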

How the data were processed

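The files used were the series' table of raw counts per gene symbol, of which the 4 columns of the BA intima are reported and those of the BT intima and BA media serve as comparison. Per the labels and the study's methods, the authors turned RNA from laser-microdissected tissue into cDNA (SMART-Seq v4) and Nextera libraries, read from 1 end. STAR placed the reads on OryCun2.0, those with a unique position were kept, and featureCounts 1.6.2 assigned them to Ensembl genes, with its strand option set for reverse-stranded reads. This cDNA method does not mark strand, so overlapping sense and antisense genes cannot be told apart. The deposited counts are not normalized. PCR copies are not marked in such libraries, so counting intervals cover counting error only.

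The entry without a symbol, with 14.9 to 17.9% of the counts of these libraries, was left out of library sizes and tests. Dates had replaced 22 symbols, which were kept as they stood and not named. Of the 13788 symbols, 12688 were in a RefSeq table of another assembly, and no coordinates or sequences were used.

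Ligated and sham libraries were compared in edgeR 4.0.16 under R 4.3.3, with TMM factors (0.934 to 1.07), a mean above 1 CPM in a group, and the quasi-likelihood F test in its older form (legacy = TRUE), adjusted over all 8974 genes. Fold changes are ligated over sham, and errors are standard errors on the log2 scale. The rabbits of the 2 groups differ, so this comparison could not be paired. Interactions were fitted over 8 libraries without and with rabbit as a block, since the tissues came from the same animals. DESeq2 1.42.0 and the settings described in the closing section were alternatives. The tests were checked on simulated counts. Some genes under the naming rule are not reported here. Named genes were, in each direction, the 15 with the widest gap on log2(CPM + 1) and the 2 with the smallest q, in each list the first 2 members and up to 6 non-overlapping members, the cell type markers, and the 2 genes with the smallest q of each interaction. The genes, the rule and the 39 lists were chosen with earlier results of these data known.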

Additional observations from a re-analysis of the deposited data

Results flagged for a closer look

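Several named genes lay on opposite sides in the BA intima and in another tissue of the same rabbits, with no overlap of ligated and sham values in either. The gaps given are those of the BA intima, on the log2(CPM + 1) scale. None of the interactions passed (edgeR without rabbit as a block, all q = 1.00), so no difference between tissues was shown.

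Against the BT intima, the opposite order was found for CSPG4 (gap 0.37, lower in ligated BA), MYC (gap 0.20, lower), F2RL1 (gap 1.49, higher), PFKFB3 (gap 0.47, higher), SAMD9L (gap 0.53, higher) and THSD7A (gap 1.58, higher). SAMD9L, an interferon-induced gene, was at 38.8 and 28.3 CPM in the sham and 71.5 and 56.5 CPM in the ligated libraries of the BA intima and at 53.6 and 55.4 CPM in the sham and 10.6 and 10.6 CPM in the ligated libraries of the BT intima. F2RL1 was at 2.09 and 5.12 CPM in the sham and 0 and 0 CPM in the ligated libraries of the BT intima. MYC was at 9.99 and 7.57 CPM in the sham and 3.87 and 6.48 CPM in the ligated libraries of the BA intima and at 8.72 and 7.04 CPM in the sham and 17.6 and 11.3 CPM in the ligated libraries of the BT intima.

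Against the BA media, the opposite order was found for CDS1 (gap 2.93, lower in ligated intima), CSPG4 (gap 0.37, lower), HEY1 (gap 0.62, lower), ITGB8 (gap 0.64, lower), MYC (gap 0.20, lower), LOXL1 (gap 0.73, higher), NRP1 (gap 0.64, higher), FZD4 (gap 0.27, higher), SERPINE2 (gap 0.20, higher) and THSD7A (gap 1.58, higher). ITGB8, an integrin that activates TGF-beta, was at 9.02 and 8.67 CPM in the sham and 3.98 and 5.22 CPM in the ligated libraries of the intima and at 4.02 and 4.92 CPM in the sham and 28.7 and 40.4 CPM in the ligated libraries of the media. LOXL1 was at 121 and 156 CPM in the sham and 84.8 and 55.5 CPM in the ligated libraries of the media, and NRP1, a semaphorin and VEGF co-receptor, at 29.4 and 21.1 CPM in the sham and 46.4 and 57.6 CPM in the ligated libraries of the intima and at 91.3 and 57.7 CPM in the sham and 46.3 and 14.7 CPM in the ligated libraries of the media. Several of the other genes stayed under 10 CPM in 1 of the tissues.

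The entry without a symbol held up to 17.9% of the counts of a BA intima library (14.9% at the lowest), and which genes these were was not analysed here. Groups of 2 libraries were too small to look for outliers.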

How the results depend on the processing

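With 2 rabbits a group, each result rests on 2 animals, ligation goes with shallower libraries, and surgery, animal and depth cannot be told apart. The count of 0 genes at q below 0.05 stayed at 0 with DESeq2's size factors, library size only, a mean above 5 CPM, the 8 intimal libraries and, chosen after seeing the data, libraries thinned to the smallest total. It was 123 with all genes with a count, 3 with edgeR's version 4 form, 120 with DESeq2 (870 further genes without an adjusted p) and 10 over all 16 libraries, and 0 to 126 when 1 library was left out, with 81 without sham rabbit 3, 126 without sham rabbit 4, and 0 without either ligated rabbit. The remaining library of a group was then assumed to vary like the other group. The cause of these differences was not tested. Leaving out 1 library gave 2478 to 2942 higher and 3092 to 3421 lower genes, since 3 values overlap less often than 4. The split between higher and lower moved from 1386 and 1796 to 1619 and 1638 with library size only. Of 1430 alternative values of the 179 named genes with non-overlapping groups, 119 passed q = 0.05, and the way these genes were chosen largely fixes their sign. Of the 39 list medians, 17 kept their sign throughout, among them those of heat shock, proteasome, endoplasmic reticulum, coagulation, actin and leucine-rich proteoglycan genes.

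Ligated against sham could not be paired. With rabbit as a replicate block, the interaction of location and flow in the intima gave 0 genes at q below 0.05 (smallest q 0.0576, CXCL10), as did that of layer and flow (smallest q 1.00), so the block changed no call. With library size only both counts were also 0.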

Other observations

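The following genes of the circadian clock were chosen after their values were seen, from no fixed list, and are given as values only, beside a share over all genes of 15.4% higher and 20% lower. CIART, NR1D1 and NR1D2, repressors of the clock loop, and TEF, a clock output factor, were lower in both ligated libraries. NR1D1 was at 12.7 and 25.6 CPM in the sham and 2.73 and 8.82 CPM in the ligated libraries, NR1D2 at 577 and 423 CPM in the sham and 255 and 136 CPM in the ligated libraries (log2 fold change -1.36 ± 0.49, q = 0.76, edgeR) and TEF at 45.97 and 47.6 CPM in the sham and 1.02 and 12.6 CPM in the ligated libraries. PER1 and CRY2, further repressors, were lower at 7.39 and 4.29 CPM in the sham and 1.48 and 1.26 CPM in the ligated libraries and at 23.02 and 22.5 CPM in the sham and 5.35 and 10.6 CPM in the ligated libraries. ARNTL, the activator BMAL1, lay the other way at 0.545 and 0.3904 CPM in the sham and 16.05 and 7.204 CPM in the ligated libraries (log2 fold change 4.60 ± 1.48, q = 0.734), as did its partner CLOCK at 8.12 and 8.28 CPM in the sham and 29.6 and 10.4 CPM in the ligated libraries and the repressor CRY1 at 6.299 and 0 CPM in the sham and 9.45 and 11.5 CPM in the ligated libraries. BHLHE40 and RORA overlapped at 1.33 and 1.41 CPM in the sham and 0.797 and 1.98 CPM in the ligated libraries and at 21.9 and 8.199 CPM in the sham and 49.5 and 5.403 CPM in the ligated libraries. In the BT intima of the same rabbits NR1D2 was at 469.7 and 551 CPM in the sham and 92.4 and 115 CPM in the ligated libraries and ARNTL at 0 and 0.64 CPM in the sham and 2.41 and 1.52 CPM in the ligated libraries. The labels give no time of day for surgery or harvest.

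FABP5, a fatty acid binding protein, was at 66.4 and 9.76 CPM in the sham and 525 and 372 CPM in the ligated libraries (log2 fold change 3.56 ± 0.83, q = 0.456). RYR2, the calcium release channel of muscle cells, was at 236 and 141 CPM in the sham and 25.8 and 22.3 CPM in the ligated libraries, and TPGS2, a subunit of the tubulin polyglutamylase, at 53.5 and 75.2 CPM in the sham and 250.3 and 261 CPM in the ligated libraries. These 3 genes were chosen after their values were seen, and RYR2 (q = 0.0302) and TPGS2 (q = 0.0388) were among the 10 genes that passed in the edgeR fit over all 16 libraries. Also among them were DPEP2 (q = 0.0107), TIMP1, ATP5PF, ANKRD1, ENPP2, PLS3 and ABCC9 (q = 0.0302), which are described above. That fit takes one spread for 4 tissues, although the 16 libraries came from 4 rabbits.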
